A study of Mus musculus with 21 samples.

Results

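Chemokines and their receptors were followed in the RNA of 21 mouse mammary tumors as a family of 50 genes. The members were taken by name from the 23203 genes in the authors' comparison table. Names made of Ccl, Cxcl, Ccr or Cxcr and a number were kept, together with *Cx3cl1*, *Cx3cr1*, *Xcl1* and *Xcr1*. They comprised 33 ligands, of which 18 were CC, 13 CXC and 2 XC or CX3C ligands, and 17 receptors, of which 9 were CC, 6 CXC and 2 XC or CX3C receptors. All tumors came from mice with FloxNeoNeuNT, an activated *Erbb2* (Neu) allele that Cre switches on at its own locus, and MMTV-CreNLST, which places Cre under the mouse mammary tumor virus promoter. The 12 RhoC tumors also carried R26(RhoC/+), a Cre-dependent *RhoC* cDNA at the Rosa26 locus. Of the 9 control tumors, 7 carried Gata4(loxP/+) and 2 had no further allele. The controls came from 9 mice and the RhoC tumors from 8, with R-13 to R-16 all from mouse P497 and R-6 and R-7 both from mouse N9255. R-18 had no mouse named in its label and was counted as a mouse of its own. The labels give no age or strain. RNA was taken from whole tumors, so fewer cells of a type and less RNA per cell cannot be told apart.

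Chemokines are small secreted proteins that guide migrating cells, mainly leukocytes, through G protein-coupled receptors, and most receptors bind several ligands. CXC ligands with a Glu-Leu-Arg motif act on *Cxcr2* and draw neutrophils. Interferon-induced *Cxcl9*, *Cxcl10* and *Cxcl11* act on *Cxcr3* of T and NK cells, and the CC ligands of the *Ccl2* group draw monocytes through *Ccr2*. *Ccl17* and *Ccl22* act on *Ccr4*, *Ccl20* on *Ccr6*, and *Xcl1* on *Xcr1* of cross-presenting dendritic cells. In carcinomas these genes can be expressed by tumor cells, stroma or infiltrating leukocytes.

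Promoter windows from RefSeq (build GRCm38.p6, 250 bases before to 50 after the start) were found for 37 of the 50 members. Shown here are the windows of 5 ligands that were highest in R-6, R-2 or N-15, chosen with the levels known. All 5 hold a match to a motif given below. Members highest in these tumors but without a listed match, such as *Ccl22* and *Ccl17*, are not shown. Capitals mark matches on either strand to an NF-κB-type motif (GGG, any 2 bases, TTTCC) in the first 4 windows and to an interferon-element-type motif (TTTC, any 2 bases, TTTC) in the last.
Cxcl1 (chr5:90890995-90891294, plus strand): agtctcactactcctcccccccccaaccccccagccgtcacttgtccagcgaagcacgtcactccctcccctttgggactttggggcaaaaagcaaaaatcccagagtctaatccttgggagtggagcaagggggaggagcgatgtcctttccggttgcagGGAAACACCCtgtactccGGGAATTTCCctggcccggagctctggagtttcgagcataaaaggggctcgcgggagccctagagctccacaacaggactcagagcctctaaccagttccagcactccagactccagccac
Cxcl2 (chr5:90903649-90903948, plus strand): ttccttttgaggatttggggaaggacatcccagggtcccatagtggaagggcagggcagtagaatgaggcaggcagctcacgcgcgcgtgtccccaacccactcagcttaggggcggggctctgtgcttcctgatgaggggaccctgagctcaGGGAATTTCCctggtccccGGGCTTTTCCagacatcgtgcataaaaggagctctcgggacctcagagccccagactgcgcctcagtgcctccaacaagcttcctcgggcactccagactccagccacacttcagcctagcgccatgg
Cxcl3 (chr5:90785851-90786150, plus strand): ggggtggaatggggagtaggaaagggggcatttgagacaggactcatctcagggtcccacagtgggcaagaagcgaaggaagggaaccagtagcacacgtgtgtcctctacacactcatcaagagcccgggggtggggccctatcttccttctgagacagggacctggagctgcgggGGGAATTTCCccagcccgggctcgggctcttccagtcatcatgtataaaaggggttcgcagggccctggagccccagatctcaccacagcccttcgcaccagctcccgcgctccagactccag
Ccl20 (chr1:83116516-83116815, plus strand): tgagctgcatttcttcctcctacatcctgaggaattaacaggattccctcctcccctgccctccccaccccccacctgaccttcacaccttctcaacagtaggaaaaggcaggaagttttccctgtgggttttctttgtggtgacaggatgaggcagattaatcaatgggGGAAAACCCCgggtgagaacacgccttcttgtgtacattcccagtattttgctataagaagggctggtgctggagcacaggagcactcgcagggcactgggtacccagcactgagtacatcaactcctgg
Cxcl10 (chr5:92348840-92349139, minus strand): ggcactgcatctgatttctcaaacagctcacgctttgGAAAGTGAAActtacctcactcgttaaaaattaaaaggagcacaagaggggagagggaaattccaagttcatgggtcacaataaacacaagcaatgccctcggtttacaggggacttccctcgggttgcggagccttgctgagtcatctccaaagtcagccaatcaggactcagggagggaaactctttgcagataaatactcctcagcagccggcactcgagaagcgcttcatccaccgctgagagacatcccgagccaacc
The first motif was present in 1.63% of all 32851 windows and in those of 6 members, *Cxcl1*, *Cxcl2*, *Cxcl3*, *Ccl20*, *Ccl9* and *Ccr3*. The 3 neighbouring *Cxcl* genes share the match GGGAATTTCC, which begins 71 bases before the start in *Cxcl1*, 97 in *Cxcl2* and 73 in *Cxcl3*. The second motif was present in 3.44% of all windows and in those of *Cxcl10* and *Cxcl14*. These matches describe letters in the window and were not tested for binding.

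Each tumor had between 47309780 and 100741339 counted reads, with medians of 64729272 in controls and 60157351 in RhoC tumors. *Rhoc*, the gene whose cDNA was added, did not separate the cohorts (22.8 to 147.6 CPM in RhoC tumors and 25.98 to 172.4 CPM in controls; log2 fold change 0.19, SE 0.34, adjusted p = 0.774), so cohorts are named here by their labels alone. *Ptprc*, carried by all leukocytes, ranged from 32.6 to 161.2 CPM in controls and from 43.2 to 169.9 CPM in RhoC tumors (adjusted p = 0.793). *Erbb2*, the oncogene, ranged from 57.9 to 2725 CPM in controls and from 255.7 to 1851 CPM in RhoC tumors (adjusted p = 0.370), and *Gata4*, from 0 to 50.04 and from 0 to 5.51 CPM, was not tested.

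Levels between genes were compared on the deposited FPKM scale, which divides by transcript length. *Cxcl14*, a ligand of epithelia and stroma, had the highest median of the 50 genes at 33.5 FPKM (4.59 to 116 over 21 tumors), followed by *Cxcr4*, the receptor of *Cxcl12*, at 33.3 FPKM (20.0 to 147.9). Next stood *Cxcl16*, a membrane-anchored ligand, at 19.1 FPKM, the macrophage ligand *Ccl6* at 15.4, the fractalkine receptor *Cx3cr1* at 14.2, *Ccr1* at 12.1, *Cxcl1* at 11.1 and *Ccl9* at 10.05 FPKM. The order of neighbours was not fixed within tumors. *Cxcl14* exceeded *Cxcr4* in 10 of 21 tumors, *Cxcr4* exceeded *Cxcl16* in 14, and *Ccr1* exceeded *Cxcl1* in 10. Below these, *Cx3cl1*, *Ccl8*, *Ccl7* and *Cxcl12* had medians between 5.12 and 9.79 FPKM, and the receptor *Ccr2* stood at 3.77 FPKM. A median of at least 1 FPKM was reached by 24 members, 18 ligands and 6 receptors, and the other 26 lay below it. *Ccl1*, *Ccr8*, *Cxcr1* and *Cxcr5* had too few reads for the test. Counts of 0 occurred for 10 members, and 3 reads correspond to between 0.034 and 0.063 CPM depending on the tumor.

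**Figure D1:**
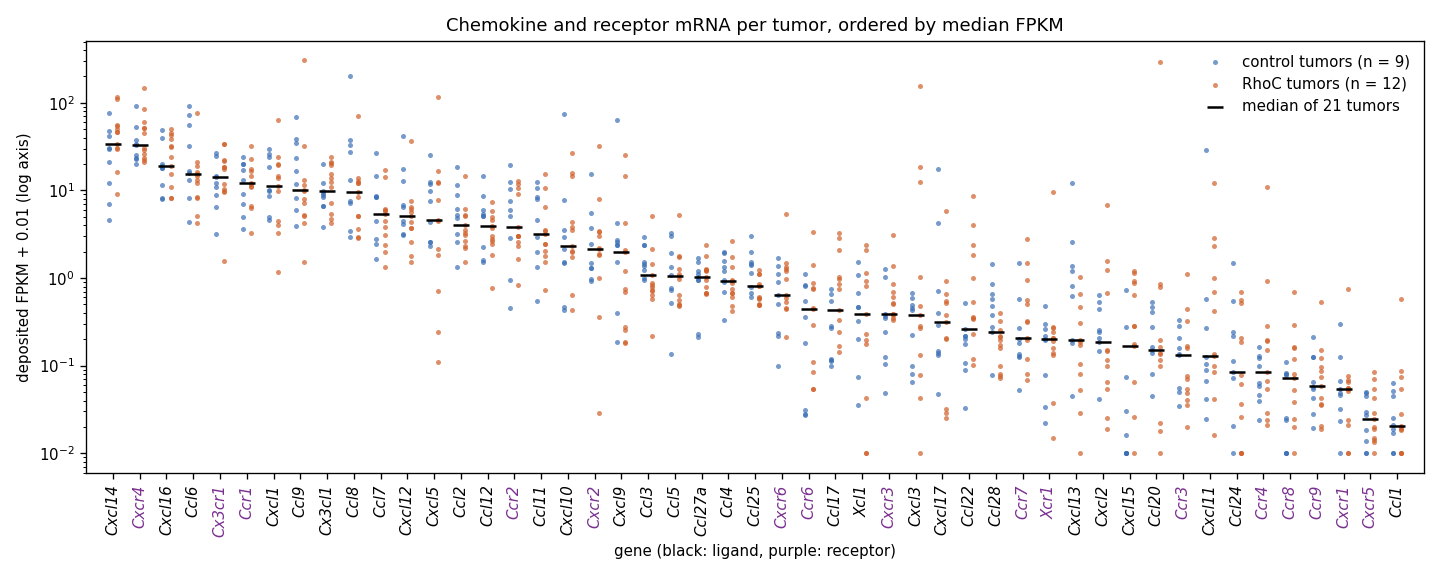
Deposited FPKM plus 0.01 on a log axis for 49 of the genes in each of the 21 tumors (blue, control; orange, RhoC), ordered by the median (black bar). Medians run from 33.5 FPKM for Cxcl14 to 0.010 for Ccl1, and the points furthest above their medians are those of Ccl20, Cxcl3 and Ccr4 in RhoC tumors and Cxcl11 in a control.

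Within a gene, tumors are compared below as TMM-normalized CPM, read counts scaled to the size of the library. The family was uneven from tumor to tumor. In 18 of the 46 members tested, the highest tumor exceeded the median tumor by more than 10 times, and in 6 by more than 50 times, beside 10.2% and 2.28% of all 19315 genes tested. The peaks gathered in a few tumors. R-6 held the highest level of 11 of the 46 members (23.9%, beside 8.86% of all genes) and R-2 of 10 (21.7%, beside 5.56%). N-3 held 7, N-15 held 4, and 9 of the 21 tumors held none.

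**Figure D2:**
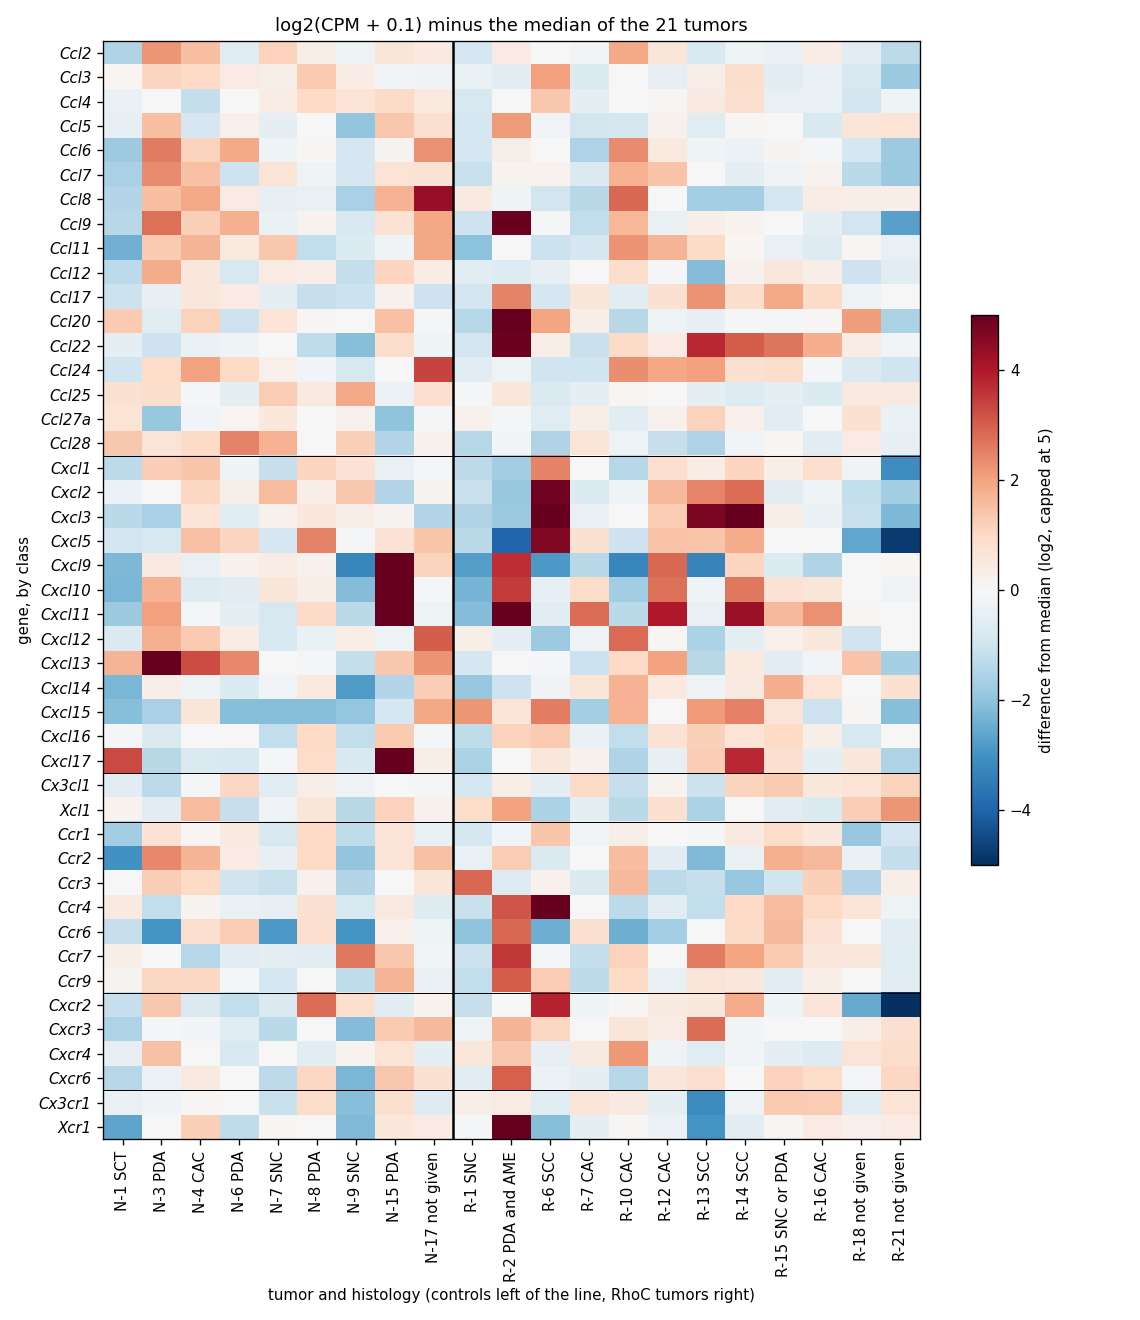
Difference of log2(CPM + 0.1) from the median of the 21 tumors for 45 of the members tested, by class (rows) and tumor with its histology (columns; CAC, complex adenocarcinoma; SCT, spindle cell tumor; PDA, adenocarcinoma with poor differentiation; AME, adenomyoepithelioma; SCC, squamous cell carcinoma; SNC, solid nodular carcinoma). Red blocks stand out at Cxcl1, Cxcl2, Cxcl3, Cxcl5 and Cxcr2 in R-6, at Cxcl9, Cxcl10 and Cxcl11 in N-15, and at Ccl9, Ccl20, Ccl22 and Xcr1 in R-2.

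Neighbouring genes peaked together in some clusters and not in others. All 5 members between 90759378 and 90905938 on chromosome 5 (GRCm38), *Cxcl5*, *Cxcl3*, *Cxcl15*, *Cxcl1* and *Cxcl2*, were highest in R-6. These include the neutrophil-attracting ligands whose promoters are shown above. *Cxcl3* was at 155 CPM in R-6, at 19.0 in R-14 and at 12.4 in R-13, and the other 18 tumors lay between 0 and 1.05 CPM. R-6, R-13 and R-14 were the squamous cell carcinomas, R-6 from mouse N9255 and the others from mouse P497. *Cxcl2* had the same 3 tumors on top, at 12.5, 2.92 and 2.26 CPM, with the next, R-12, at 1.24 CPM. For *Cxcl5* R-6 stood apart at 183 CPM, but the control N-8 followed at 40.2 CPM before R-14 at 26.2 CPM. *Cxcl1* was more even, at 59.6 CPM in R-6 and 28.5 CPM in the next tumor, N-4. *Cxcr2*, the receptor these ligands share, was at 96.0 CPM in R-6, 46.6 in N-8 and 24.2 in R-14, against a median of 4.44 CPM in controls and 6.78 CPM in RhoC tumors. The lowest *Cxcr2* (0.059 CPM), *Cxcl5* (0.163 CPM) and *Cxcl1* (1.14 CPM) were all in R-21, which also had no read of *Cxcl3*.

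The summed level of the 6 neutrophil markers listed was 664 CPM in R-6, of which *S100a8* gave 317 and *S100a9* 205 CPM. It ranged from 11.4 to 204.3 CPM in controls, the highest being N-8, and from 7.02 to 664 CPM in RhoC tumors. In R-13 *S100a8* and *S100a9* were at 60.2 and 37.8 CPM and *Csf3r* at 15.3 CPM. There *Retnlg*, *Ly6g* and *Mpo* were at most 0.564 CPM. In R-6 4 of the 6 markers had their highest level and none was at 0, while *Ly6g* and *Mpo* were highest in N-8. In R-21 4 of the 6 were at 0. N-4, second for *Cxcl1*, had the lowest sum of the controls. Basal epithelial markers, which keratinocytes also express, summed to 16660 CPM in R-6, 11600 in R-13, 5213 in R-14 and 3962 CPM in R-12, a complex adenocarcinoma, against at most 2539 CPM in controls. The squamous keratinocyte markers listed went another way. They summed to 30.55, 22.9 and 15.3 CPM in R-6, R-13 and R-14, but to 334 CPM in the control N-1 and 44.6 CPM in N-7. In N-1 *Cxcl3* was at 0.091 CPM. The part of these cell types in the chemokine levels was not tested.

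The interferon-induced ligands *Cxcl9*, *Cxcl10* and *Cxcl11*, at 92321347 to 92365485 on chromosome 5, were all highest in the control N-15 and second in R-2. *Cxcl9* was at 186 CPM in N-15 and 74.9 CPM in R-2, *Cxcl10* at 113 and 40.9, and *Cxcl11* at 110.0 and 46.2 CPM. Control medians were 6.79, 3.30 and 0.364 CPM, and those of RhoC tumors 2.84, 4.46 and 1.04 CPM. N-15 was a poorly differentiated adenocarcinoma, as were N-3, N-6 and N-8, in which *Cxcl9* was between 6.76 and 7.98 CPM. *Cxcr3*, their receptor, was low throughout (0.068 to 5.20 CPM) and highest in R-13, where *Cxcl9* was at its lowest, 0.480 CPM. *Cxcl11* is annotated as a polymorphic pseudogene, and 41.7% of its exonic bases overlap a gene on the other strand, so its values are uncertain if counting ignored strand.

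R-2, listed with both a poorly differentiated adenocarcinoma and an adenomyoepithelioma, held the peaks of a second set of genes. *Ccl20*, which draws *Ccr6*-bearing lymphocytes and dendritic cells, was at 420.4 CPM in R-2 and at no more than 1.20 CPM in any other tumor. Of the 25474 *Ccl20* reads in the 21 tumors, 25107 came from R-2, or 98.6%. *Ccr6* was at 7.90 CPM there and at 3.32 CPM in the next tumor, R-15. *Xcr1* was at 42.6 CPM in R-2 against 2.08 CPM in N-4, and *Ccl9*, a macrophage ligand, at 942 CPM against 213 CPM in N-3. *Cxcr6* (10.5 CPM), *Ccr7* (5.56 CPM), *Ccr9* (2.93 CPM) and *Ccl5* (2.85 CPM) were also highest in R-2. For *Ccr9*, 19.0% of the exonic bases are shared with genes on the other strand, so its values are uncertain in the same way as those of *Cxcl11*. *Ccl5* overlapped far more, with N-3 at 1.77 and N-15 at 1.58 CPM. In the cluster at 123678439 to 124147699 on chromosome 9, R-2 led *Ccr9*, *Cxcr6* and *Xcr1*, while R-6 led *Ccr1*, R-1 led *Ccr3* and N-3 led *Ccr2*.

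Markers of other cells stood high in R-2 as well. Of the 5 markers listed for lymph node stroma and vessels, 4 were highest there, among them *Cr2*, the complement receptor of B cells and follicular dendritic cells, at 887 CPM against at most 2.12 CPM elsewhere. *Madcam1*, *Fcer2a* and *Chst4* were at 6.18, 3.32 and 4.19 CPM in R-2 and at most 0.291 CPM elsewhere. The fifth, *Glycam1*, also a milk gene, was highest in R-18 (1468 CPM), and the summed list ranged from 0.0996 to 18.7 CPM in controls. Dendritic cell markers summed to 71.4 CPM in R-2 and to between 3.56 and 37.8 CPM in controls, and 4 of the 5 were highest in R-2. Among these, *Flt3* was at 24.7 CPM against at most 1.69 CPM elsewhere, but *Zbtb46* was almost as high in the control N-17. The remaining marker, *Cd209a*, was highest in N-17 at 8.69 CPM and was at 2.81 CPM in R-2. T cell markers summed to 35.0 CPM in R-2 against 0.961 to 21.6 CPM in controls. No marker of the lymph node and dendritic cell lists was at 0 in R-2. Their part in the chemokine levels was not tested.

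Several monocyte ligands were highest in N-3. *Ccl2*, *Ccl7* and *Ccl12*, in a cluster on chromosome 11 (82035571 to 82305690) that also holds *Ccl11*, *Ccl8* and *Ccl1*, were highest in N-3, at 15.3, 22.1 and 7.95 CPM, against control medians of 4.41, 6.78 and 2.81 CPM. *Ccr2*, a receptor of monocytes, was also highest in N-3, at 135 CPM. *Ccl8* was at 105 CPM in the control N-17 and 37.2 CPM in R-10, with a median of 6.66 CPM in controls and 4.67 CPM in RhoC tumors. *Ccl6* was high in these tumors, at 134 CPM in N-3, 112 in R-10 and 106 CPM in N-17. N-17 and R-10 also led *Cxcl12*, the stromal ligand of *Cxcr4*, at 303 and 270.4 CPM, while N-3 followed at 127 CPM and the other tumors lay between 10.7 and 92.2 CPM. *Cxcr4* itself was highest in R-10 at 273 CPM, but in N-17 it was only at 43.6 CPM. Markers of other cells were high in some of these tumors. *Mrc1*, a macrophage receptor, was at 296 CPM in N-3, 281 in N-17 and 282 CPM in R-10, with N-4 next at 263 CPM, and the 7 macrophage markers, none at 0 in any tumor, summed to 817, 938 and 877 CPM (148 to 938 in controls, 290.4 to 1096 in RhoC tumors). The 3 skeletal muscle markers summed to 214, 2215 and 472 CPM, the 3 adipocyte markers to 1.10, 213.5 and 21.4 CPM and the 5 blood endothelial markers to 310.0, 744.5 and 466.4 CPM in N-3, N-17 and R-10. Tumors outside this group exceeded N-3 in each list, among them R-1 for muscle (232.7 CPM), R-2 for adipocytes (9.31 CPM) and N-4 for endothelium (382.2 CPM). The part of these cells in the chemokine levels was not tested.

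*Cx3cl1*, a membrane-bound ligand of epithelium and endothelium, and its receptor *Cx3cr1*, found on macrophages, both peaked in R-15, at 95.6 and 156 CPM, and *Cxcl14* did so too at 217 CPM. *Cx3cr1* was also at 153 CPM in R-16, a tumor of the same mouse. The macrophage sum was highest in R-15 (1096 CPM), with 4 of the 7 markers at their highest there, and its part was not tested. *Cx3cl1* was among the most even genes, from 15.3 to 78.2 CPM in controls and 17.2 to 95.6 CPM in RhoC tumors. *Cxcl16*, which binds *Cxcr6*, was likewise even, with 22.2 to 132 CPM in controls and 22.0 to 132 CPM in RhoC tumors. For *Cxcl16*, 18.3% of the exonic bases overlap *Zmynd15* on the other strand.

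RhoC tumors were then compared with controls across all 19315 genes tested, with edgeR's quasi-likelihood test and Benjamini-Hochberg adjustment. No member passed an adjusted p of 0.05, while 43 genes of the whole table did (0.223%). The smallest adjusted p of a member was 0.0714, for *Ccl22*. At an unadjusted p under 0.05 there were 9 of 46 members, beside 20.5% of all genes. Of these, 6 were higher in RhoC tumors (all genes, 10.5%) and 3 lower (9.93%). DESeq2 placed 6 of the 50 members under an adjusted p of 0.05, against 5.94% of the genes it gave an adjusted p. Without its replacement of outlying counts it placed 5 of the 36 members with an adjusted p, against 5.25% of such genes. The cohorts overlapped for all 50 members, but the share of all genes that overlap was not computed, so this does not set the family apart. The median log2 fold change was 0.29 over the members tested and -0.01 over all genes, -0.31 for the 32 ligands and 0.46 for the 14 receptors. It turned to -0.185 for the members without R-2, to -0.0876 without R-6 and to -0.456 without both.

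**Figure D3:**
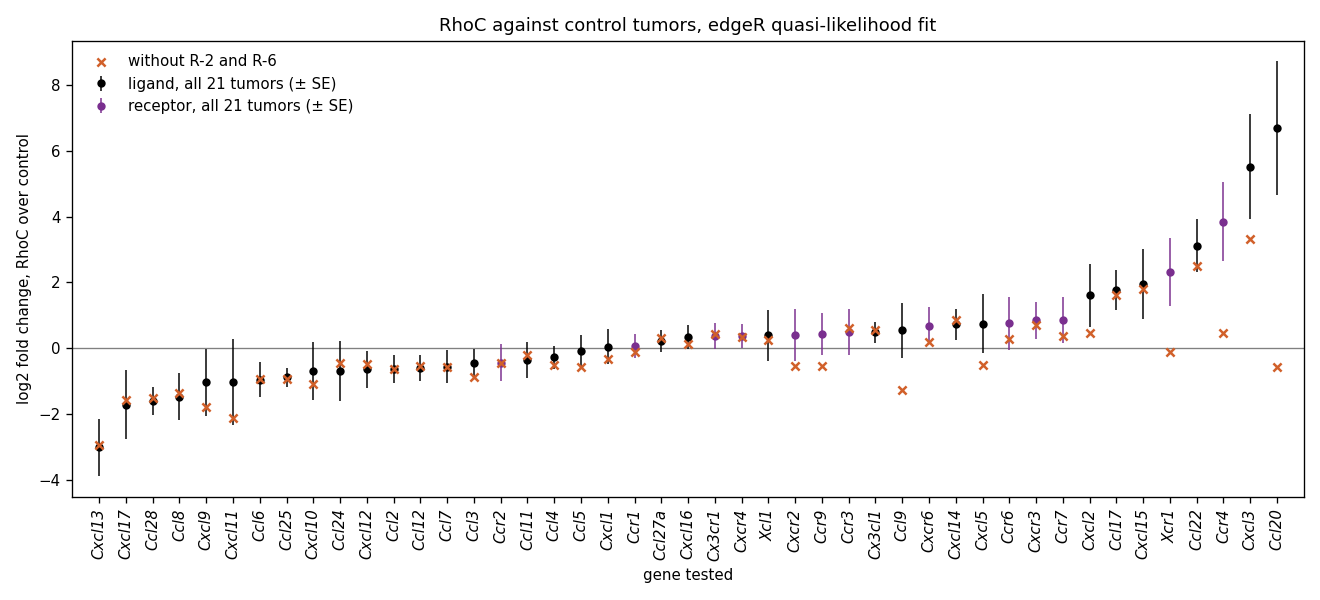
Log2 fold change of RhoC over control tumors with its standard error for 45 of the members tested (black, ligands; purple, receptors), and the value without R-2 and R-6 (orange crosses). Ccl20, Ccr4 and Xcr1 drop to near or below 0 without these tumors (-0.55, 0.48 and -0.11), while Ccl22 (2.49), Ccl28 (-1.52) and Cxcl13 (-2.92) keep their side.

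*Ccl22*, a ligand made by dendritic cells and macrophages that acts on *Ccr4* of regulatory T and Th2 cells, ran from 0.054 to 1.17 CPM in controls, with a median of 0.441, and from 0.218 to 20.5 CPM in RhoC tumors, with a median of 1.03. In 10 RhoC tumors it lay above the control median, and R-2 was followed by R-13 (9.23 CPM), R-14 (5.51), R-15 (4.28) and R-16 (2.28), which share mouse P497. The means were 3.87 ± 5.91 CPM (SD, n = 12) and 0.447 ± 0.321 CPM (SD, n = 9), with a log2 fold difference of 3.11 (SE 0.81, adjusted p = 0.0714 by edgeR). DESeq2 gave an adjusted p of 0.00118, and edgeR without N-15 gave 0.0468. With the counts of each mouse summed it was 0.201, without the tumors of P497 it was 0.274, and with mouse as a random effect in limma voom the log2 fold change was 1.94 and the adjusted p 0.320.

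*Ccl17*, the other *Ccr4* ligand and a neighbour of *Ccl22* on chromosome 8 (94745590 to 94812036 with *Cx3cl1*), had much the same leading tumors. It ran from 0.046 to 0.378 CPM in controls, with a median of 0.133, and from 0.068 to 1.67 CPM in RhoC tumors, with a median of 0.414. R-2, R-13 and R-15 were highest, and all 9 controls lay below the RhoC median. The log2 fold change was 1.78 (SE 0.60, adjusted p = 0.127 by edgeR and 0.0397 by DESeq2). *Ccr4* was at 33.2 CPM in R-6, 2.90 CPM in R-2 and below 1 CPM elsewhere. Its log2 fold difference of 3.85 (SE 1.20, adjusted p = 0.105 by edgeR) was 1.28 without R-6, where *Ccl22* was at 0.762 CPM. *Ccr4* and *Ccl22* did not peak in the same tumor.

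For *Cxcl3*, *Ccl20* and *Xcr1* the higher side rested on 1 to 3 tumors. *Cxcl3* had medians of 0.430 CPM in controls and 0.328 CPM in RhoC tumors, and a log2 fold difference of 5.52 (SE 1.60, adjusted p = 0.0897 by edgeR and 0.0313 by DESeq2). Without the squamous cell carcinomas it was -0.195. *Ccl20* had medians of 0.220 and 0.184 CPM, a log2 fold difference of 6.68 (SE 2.03, adjusted p = 0.1001 by edgeR) and -0.15 without R-2. *Xcr1* had medians of 0.856 and 0.841 CPM, a log2 fold difference of 2.32 (SE 1.04, adjusted p = 0.217 by edgeR) and -0.22 without R-2.

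On the lower side, *Ccl28*, a ligand of mucosal and mammary epithelium that draws IgA plasma cells, ran from 0.254 to 5.31 CPM in controls, with a median of 1.76, and from 0.230 to 1.46 CPM in RhoC tumors, with a median of 0.664. All 12 RhoC tumors lay below the control median, and 8 of 9 controls above the RhoC median, N-15 being the exception. The means were 0.675 ± 0.388 CPM (SD, n = 12) in RhoC tumors and 2.03 ± 1.51 CPM (SD, n = 9) in controls. The log2 fold change was -1.59 (SE 0.43, adjusted p = 0.0798 by edgeR and 0.00971 by DESeq2). With edgeR it passed without N-15 (adjusted p = 0.0370) and against the Gata4(loxP/+) controls alone (0.0293, n = 7), where 2.22% of all genes passed. With counts summed per mouse its adjusted p was 0.209, without the squamous cell carcinomas 0.182, without the tumors of P497 0.305 and without R-2 and R-6 0.133.

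*Ccl25*, which draws T cells through *Ccr9*, ran from 1.58 to 8.23 CPM in controls, with a median of 3.79, and from 1.26 to 3.30 CPM in RhoC tumors, with a median of 1.84. Again all 12 RhoC tumors lay below the control median, while N-4, N-6, N-8 and N-15 lay within the RhoC range. The log2 fold change was -0.88 (SE 0.29, adjusted p = 0.116 by edgeR and 0.0383 by DESeq2). *Cxcl13*, the B cell ligand of *Cxcr5*, was at 14.1 CPM in N-3, with a control median of 0.925 CPM, and from 0 to 1.17 CPM in RhoC tumors, with a median of 0.195. Its log2 fold difference of -3.01 (SE 0.87, adjusted p = 0.0897 by edgeR and 0.0103 by DESeq2) was -1.71 without N-3. Plasma cell markers summed to 0.871 to 23.2 CPM in controls and 0.313 to 10.3 CPM in RhoC tumors, and 2 of the 4 were at 0 in at least 1 tumor. *Jchain* (log2 fold change -2.76, adjusted p = 0.104 by edgeR) and *Mzb1* (-1.89, adjusted p = 0.130) had lower levels in RhoC tumors without passing the test, while *Derl3* (-0.09, adjusted p = 0.949) gave 10.02 CPM of the highest RhoC sum, in R-21. Their part was not tested.

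The next members by p on the lower side moved with the tumors kept. *Ccl8* (log2 fold change -1.48, SE 0.71, adjusted p = 0.246 by edgeR) was -0.30 without N-17 and -2.21 without R-10. *Cxcl17*, a mucosal ligand at 13.3 CPM in N-15 and with medians of 0.217 CPM in controls and 0.260 CPM in RhoC tumors, had a log2 fold difference of -1.71 (SE 1.05, adjusted p = 0.358 by edgeR) and 0.08 without N-15. *Ccl6* (-0.95, SE 0.53, adjusted p = 0.314 by edgeR) was -0.61 without N-3 and -1.47 without R-10.

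**Figure D4:**
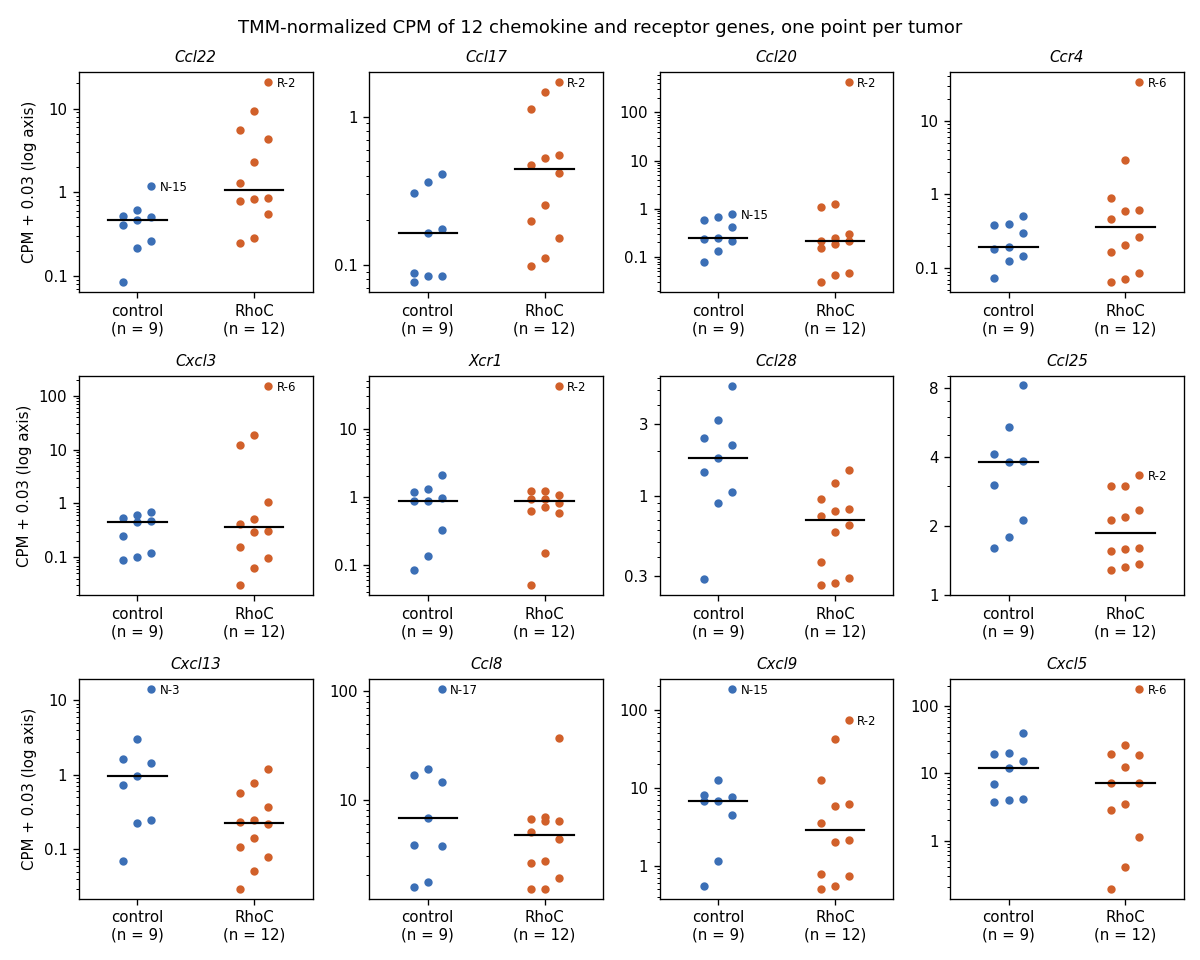
TMM-normalized CPM plus 0.03 on a log axis for 12 genes, with a point for each control (n = 9, blue) and RhoC tumor (n = 12, orange) and the median as a bar. For Ccl28 and Ccl25 all 12 RhoC tumors lie below the control median within overlapping ranges. For Ccl22 and Ccl17 the highest values are in RhoC tumors. The same holds for Ccl20, Ccr4, Cxcl3, Xcr1 and Cxcl5, whose other points mostly overlap.

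The abundant members showed no difference between cohorts that passed the test. *Cxcl14* had medians of 54.2 CPM in controls and 85.3 CPM in RhoC tumors (log2 fold change 0.73, SE 0.47, adjusted p = 0.380 by edgeR). *Cxcr4* had medians of 60.7 and 69.1 CPM (0.38, SE 0.36, adjusted p = 0.566), *Cxcl16* of 49.6 and 74.7 CPM (0.35, SE 0.37, adjusted p = 0.616), and *Cx3cr1* of 55.9 and 81.5 CPM (0.38, SE 0.40, adjusted p = 0.608). *Ccr1* (0.06, SE 0.37) and *Ccr2* (-0.44, SE 0.56) had adjusted p-values of 0.939 and 0.677. *Ccl9* (0.55, SE 0.83, adjusted p = 0.731) was -1.28 without R-2, where its adjusted p was 0.170. *Ccr7* lies 0.706 Mb beyond *Erbb2* on chromosome 11 and had a log2 fold difference of 0.86 (SE 0.70, adjusted p = 0.499).

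Whether a ligand and its receptor varied together was examined over the 17 mice, as the mean log2 CPM per mouse, for 17 of 21 listed pairs with enough reads. Permutation tests with 100000 resamples were adjusted over the 17 pairs. By r 9 pairs passed and by rho 6. *Cxcl16* and *Cxcr6* had the closest relation (r = 0.790, adjusted permutation p = 0.00187; rho = 0.833, adjusted permutation p = 0.00102). *Ccl2* and *Ccr2* followed (r = 0.766, adjusted permutation p = 0.00195; rho = 0.672, adjusted permutation p = 0.0228). *Cxcr2* moved with *Cxcl1* (r = 0.735, adjusted permutation p = 0.00402; rho = 0.637, 0.0319) and with *Cxcl5* (r = 0.717, adjusted permutation p = 0.00569; rho = 0.610, 0.0371). *Xcl1* and *Xcr1* had r = 0.606 (adjusted permutation p = 0.0154) and rho = 0.728 (adjusted permutation p = 0.0121). For *Xcl1*, 18.7% of the exonic bases overlap a gene on the other strand. Both genes of a pair were read from the same library, and P497 and N9255 each entered as the mean of several tumors.

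Without the 2 mice farthest from the median in the ligand, *Cxcl16* with *Cxcr6* (r = 0.795), *Cxcl1* (r = 0.653) and *Cxcl5* (r = 0.658) with *Cxcr2*, and *Xcl1* with *Xcr1* (r = 0.608) still passed, and *Ccl2* with *Ccr2* had r = 0.616 (adjusted permutation p = 0.0507). Without the mice of R-2, R-6 and N-15, *Xcl1* with *Xcr1* no longer passed (r = 0.514, adjusted permutation p = 0.154). Others that had passed did not pass without the 2 farthest mice. *Cxcl10* with *Cxcr3* went from r = 0.590 (rho = 0.544, adjusted permutation p = 0.0548) to 0.432, *Cxcl9* with *Cxcr3* from 0.558 (rho = 0.490, adjusted permutation p = 0.0911) to 0.379, and *Ccl20* with *Ccr6* from 0.522 (rho = 0.348, adjusted permutation p = 0.289) to 0.298, so none of these passed by rho. *Ccl3* and *Ccr1* passed by rho (0.586, adjusted permutation p = 0.0430) and not by r (0.519, adjusted permutation p = 0.0516). Within control mice alone the correlation of *Cxcl16* and *Cxcr6* was 0.831, and within RhoC mice 0.768; for *Ccl2* and *Ccr2* these were 0.791 and 0.784, and for *Cxcl5* and *Cxcr2* 0.351 and 0.793. *Cxcl12* and *Cxcr4*, both abundant, had r = 0.307 (rho = 0.108, adjusted permutation p = 0.723), and *Cx3cl1* and *Cx3cr1* had r = 0.164 (rho = 0.191, adjusted permutation p = 0.523). *Ccl22* and *Ccr4* had r = 0.483 (rho = 0.191, adjusted permutation p = 0.523).

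**Figure D5:**
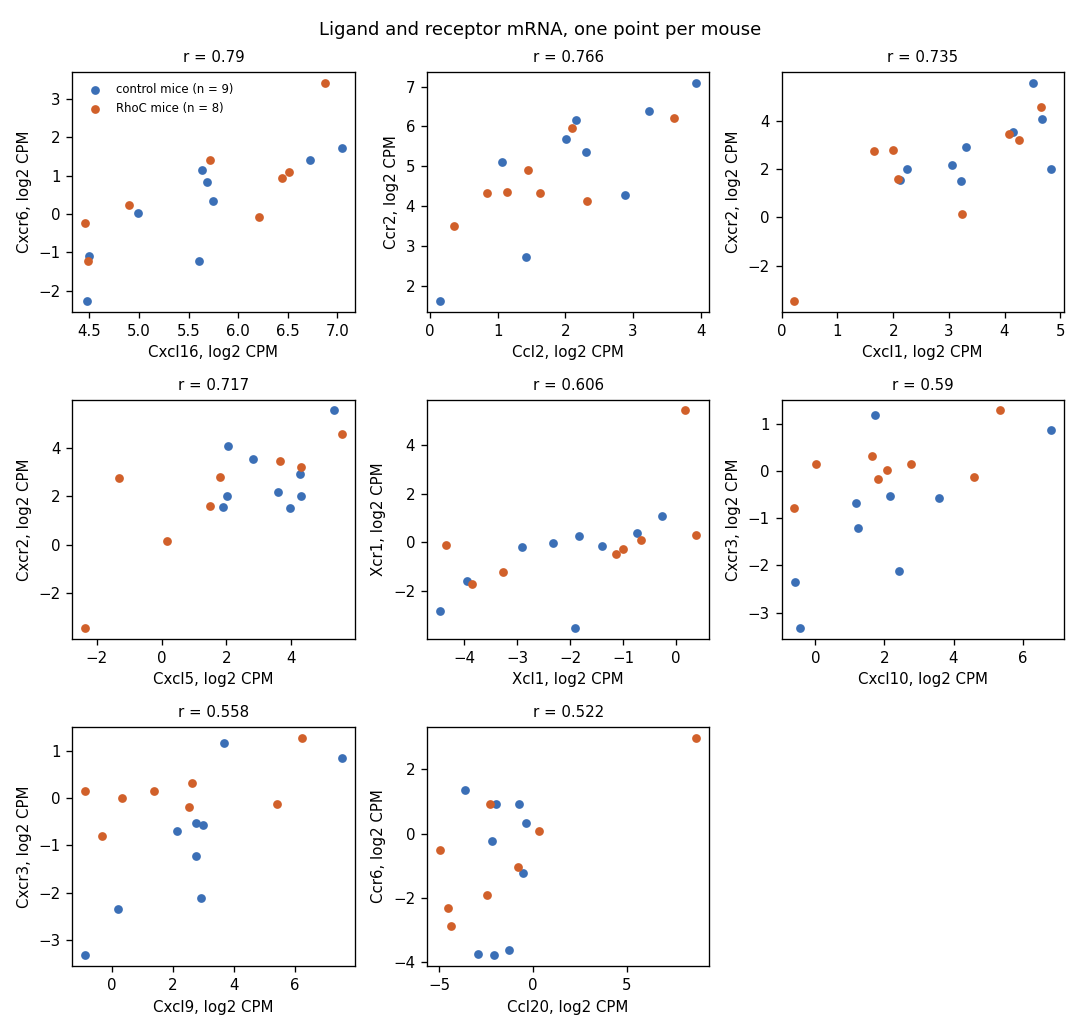
Mean log2 CPM of receptor against ligand, with a point for each of 9 control mice (blue) and 8 RhoC mice (orange), for 8 pairs whose Pearson r passed adjustment. Points for Cxcl16 and Cxcr6 (r = 0.790) spread along the whole range, while a single RhoC mouse sets the upper right corner for Ccl20 and Ccr6 (r = 0.522) and for the top of Xcr1.

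The other genes of the pathway were taken from lists. None of the 7 atypical receptors and platelet chemokines, 22 receptor signalling genes, 16 tested inducers and 7 proteases passed an adjusted p of 0.05 with edgeR. At an unadjusted p under 0.05 there were 1, 4, 9 and 2 of these, beside 20.5% of all genes. The inducers had all 9 on the higher side, with a median log2 fold difference of 0.68. *Tgfb1*, a cytokine that restrains immune cells, was at 30.7 to 105.5 CPM in controls and 50.6 to 245.8 CPM in RhoC tumors (log2 fold change 1.04, adjusted p = 0.0821 by edgeR). *Nfkb2*, a subunit of NF-κB, ran from 23.9 to 65.3 CPM in controls and from 29.3 to 397 CPM in RhoC tumors, with R-2 highest and the next tumor at 162 CPM (1.26, adjusted p = 0.116; 0.52 without R-2 and R-6). *Il1a*, a cytokine that induces *Cxcl1* and its neighbours, was highest in R-6 at 267 CPM against 74.0 CPM in the next tumor (3.14, adjusted p = 0.120; 2.15 without R-2 and R-6). Without R-2 and R-6 there were 4 of 15 inducers at an unadjusted p under 0.05, beside 18.3% of all genes.

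Among the remaining lists, *Ppbp*, a platelet chemokine that acts on *Cxcr2*, was highest in R-6 at 344 CPM and second highest at 128 CPM (log2 fold change 3.70, adjusted p = 0.117 by edgeR), and *Ccrl2*, an atypical receptor that binds chemerin, had a log2 fold difference of -0.76 (adjusted p = 0.273). *Grk2*, a kinase that desensitizes the receptors, had 0.50 (adjusted p = 0.147) and *Rgs16*, which shortens their G protein signals, 1.53 (adjusted p = 0.197). *Mmp9*, a protease that trims chemokines, was highest in R-13 at 793 CPM (2.596, adjusted p = 0.140), and *Mmp14*, which cleaves *Cxcl12*, had 0.65 (adjusted p = 0.230). The interferon gene *Ifng* had at most 0.218 CPM in any tumor and was not tested.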

How the data were processed

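RNA of 21 mammary tumors was sequenced by the authors from ribosomal RNA-depleted, stranded libraries. Per the labels and the submitters' processing notes, reads were trimmed with Trim Galore 0.5.0, checked with FastQC 0.11.5, aligned to GRCm38.p6 with STAR 2.6.0c and counted with HTSeq 0.6.1p2. The annotation release and strand setting are not given in the sources used here. The authors deposited raw counts per gene for each tumor. They also deposited FPKM (scaled by them for transcript length and library size) in the table that names the genes, and this table was used for names, positions and levels between genes. Its fold changes and p-values, and those of a second table, were not used. Groups came from the sample labels. Histology came from the study's sample list and was used for description and for 1 alternative. For R-21, mouse names in the labels and in this list differ.

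Counts were tested in R 4.3.3 with edgeR 4.0.16 (TMM, filterByExpr by cohort, quasi-likelihood test, no covariates), with Benjamini-Hochberg adjustment over all genes tested and a threshold of 0.05. Standard errors are the log2 fold change divided by the square root of F. Log2 CPM used a prior count of 2. Several tumors shared a mouse (correlation 0.27 in voom), so p-values measure the spread between tumors and can be too small. Alternatives were DESeq2 1.42.0, limma 3.58.1 (voom with mouse as a random effect), counts summed per mouse, other scalings and filters, and subsets of tumors. Pairs with a median of at least 10 reads per gene were tested over mice by permutation. In simulated data over 19315 genes, edgeR recovered 76% of genes changed by a log2 fold of 2 and 83% of those changed by 3, with 9 false calls. DESeq2 recovered 85% and 95%, with 45 false calls. The simulated tumors were drawn independently, with none sharing a mouse, so these shares do not cover that part of the design.

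Genes named are those with an adjusted p under 0.05, the 6 tested members with the smallest p in each direction, the 8 ligands and 5 receptors with the highest median FPKM, the 6 most variable members with a mean log2 CPM over 0, members of pairs that passed, from each pathway list the 2 genes of smallest p and 4 check genes. For marker lists the rule's 2 genes of smallest p were not followed, and sums are given instead. Others were named after their values were seen. The members and lists were chosen with earlier results of these data known. Fits without R-2 and R-6, DESeq2 without replacement of outlying counts and pairs without the mice of R-2, R-6 and N-15 were added after the data were seen. Values of 1 member are not reported here, while counts over the family include it.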

Additional observations from a re-analysis of the deposited data

How the results depend on the processing

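Members with an adjusted p under 0.05 numbered 0 with edgeR's main settings (9 at an unadjusted p under 0.05), 6 with DESeq2, 5 with DESeq2 without its replacement of outlying counts (chosen after seeing the data, as were fits without R-2 and R-6), 1 against the Gata4(loxP/+) controls alone and 0 to 2 when 1 tumor was left out. They numbered 0 with counts summed per mouse (10 unadjusted), with voom (7) and under the other settings. Of all genes, 43 passed, with 27 under library size scaling, 1452 with DESeq2 and 1221 without its replacement, 3 with counts summed per mouse, 3 with voom, 438 against the Gata4(loxP/+) controls, 3 without mouse P497, 26 without the squamous cell carcinomas, 19 without the spindle cell tumor, 15 without R-2 and R-6, and 14 (without N-9) to 346 (without N-15) when 1 tumor was left out. Both cohorts share tumor numbers 1, 6, 7 and 15, but from different mice, and deviations of same-numbered tumors correlated between -0.237 and 0.0217, so the numbers do not pair the samples. A replicate block on these 8 tumors gave 0 called members and 0 called genes, as did the same tumors with no block. The median log2 fold change of the members ranged from -0.185 to 0.474 when 1 tumor was left out.

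The directions of many uncalled members turned with the tumors kept. With DESeq2 the sign turned for Ccl20 (-0.16), Ccl9 (-1.24), Cxcl10 (1.34), Cxcl5 (-0.61), Cxcl9 (0.22), Cxcr2 (-0.57) and Xcr1 (-0.21). With voom and mouse as a random effect the sign turned for Ccl20 (-0.0513), Ccl5 (0.0675), Ccl9 (-0.65), Ccr1 (-0.0343), Cxcl1 (-0.60), Cxcl10 (0.25), Cxcl5 (-1.33) and Cxcr2 (-0.77). With the replicate block on 8 tumors the sign turned for Ccl20 (-1.08), Ccl9 (-0.82), Ccr2 (0.73) and Xcl1 (-0.92). In the same 8 tumors with no block the sign turned for Ccl20 (-0.30), Ccl9 (-1.18), Ccr2 (0.56), Xcl1 (-0.52) and Xcr1 (-0.12). Without R-2 and R-6 the sign turned for Ccl20 (-0.55), Ccl9 (-1.27), Ccr1 (-0.11), Cxcl1 (-0.31), Cxcl5 (-0.49), Cxcr2 (-0.55) and Xcr1 (-0.11). With counts summed per mouse the sign turned for Ccl5 (0.14), Ccr1 (-0.23), Cxcl1 (-0.39) and Cxcr2 (-0.10). Against the Gata4(loxP/+) controls the sign turned for Ccl5 (0.25), Cxcl1 (-0.10), Cxcl10 (1.33) and Cxcl9 (1.33). Without mouse P497 the sign turned for Ccl5 (0.15), Ccr1 (-0.13) and Cxcl1 (-0.0637). Without the squamous cell carcinomas the sign turned for Ccl5 (0.053), Ccr1 (-0.17), Cxcl1 (-0.64), Cxcl3 (-0.195), Cxcl5 (-1.21) and Cxcr2 (-1.04). Without the spindle cell tumor the sign turned for Ccr1 (-0.0655) and Cxcl1 (-0.0776). With 1 tumor left out at a time the sign turned for Ccl20 (-0.15 to 6.91), Ccl5 (-0.56 to 0.17), Ccl9 (-1.28 to 0.95), Ccr1 (-0.12 to 0.22), Cxcl1 (-0.41 to 0.23), Cxcl10 (-1.17 to 1.36), Cxcl17 (-2.94 to 0.0831), Cxcl5 (-0.63 to 1.14), Cxcl9 (-1.89 to 1.08), Cxcr2 (-0.57 to 1.14) and Xcr1 (-0.22 to 2.6). Of the ligand and receptor pairs, 9 passed by r (6 by rho), against 4 without the 2 farthest mice, 4 without the mice of R-2, R-6 and N-15 (chosen after seeing the data), and 0 within the control mice or the RhoC mice alone, where 6 pairs each had an unadjusted permutation p under 0.05. The sign of r turned for Cx3cl1 with Cx3cr1 (-0.194, RhoC mice), Ccl11 with Ccr3 (0.267, control mice) and Ccl25 with Ccr9 (0.359, RhoC mice). Except where a setting removes tumors, the cause was not tested. *Ccl1*, *Ccr8*, *Cxcr1* and *Cxcr5* had too few reads in most tumors to be tested.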
